A study of Homo sapiens with 8 samples.

Results

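The 40 genes described here are ATF4 and the amino acid response genes commonly placed downstream of it, chosen by name from a list of ATF4 pathway genes. They were found among the 58721 genes of each count table through their Ensembl identifiers and GENCODE release 29, where the aminoacyl-tRNA synthetases carry the older symbols AARS, GARS, SARS, WARS, MARS and CARS. All 40 had a row, and 39 passed the filter on low counts. The exception was NUPR1, a small stress-induced chromatin protein. The set was chosen with earlier results of these data known.

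Messenger RNA was sequenced from CHLA-20 and NGP, 2 established human neuroblastoma cell lines. Each line received DMSO, the vehicle, or an inhibitor of the arginine methyltransferase PRMT5 for 6 days at the IC50 dose, with no concentration stated. The sample names call the inhibitor JSK591, the name used here, while the treatment text calls it GSK591. The 4 groups were CHLA-20 with DMSO, CHLA-20 with JSK591, NGP with DMSO and NGP with JSK591, with 2 libraries each and no genetic change named for any of them. The media differed, IMEM with an insulin, transferrin and selenite supplement for CHLA-20 and RPMI1640 for NGP, both with serum, so line and medium cannot be told apart. The sources used here do not say whether the 2 libraries of a group were separate cultures, so p-values reflect the spread among these samples only, and that spread may be technical.

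ATF4 is the transcription factor of the integrated stress response. Kinases that sense missing amino acids, misfolded protein, viral RNA or haem phosphorylate the initiation factor eIF2, which slows general translation while the ATF4 message is translated more. ATF4 protein then pairs with C/EBP factors on short composite DNA elements and raises genes for amino acid synthesis, import and tRNA charging. Its activity is set largely by translation, which messenger RNA counts do not measure.

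Libraries held 33188542 to 34914902 gene counts, and the members took 0.423% to 0.523% of them. Levels are normalised counts (CPM, scaled by TMM), and changes are log2 estimates of JSK591 against DMSO with their standard error. PHOX2A, HAND2 and GATA3, transcription factors of sympathetic neuroblasts, were present at 348 to 837 CPM in every group mean. TH and DBH, enzymes of catecholamine synthesis, averaged 1380 and 46.8 CPM in CHLA-20 with DMSO but 0.762 and 0.284 CPM in NGP with DMSO, so these defining markers were near 0 in NGP. Summed markers of blood cells (7 genes) stood at 0.149 to 0.39 CPM and of epithelium (6 genes) at 2.51 to 6.96 CPM. The 9 fibroblast and Schwann cell markers summed to 380 and 384 CPM in CHLA-20 with DMSO, 337 and 344 CPM with JSK591, 664 and 677 CPM in NGP with DMSO, and 762 and 800 CPM with JSK591. Different genes made up these sums in the 2 lines. LUM and DCN averaged 158 and 134 CPM in CHLA-20 with DMSO but 3.78 and 0.12 CPM in NGP with DMSO. COL1A1 averaged 71 CPM with DMSO and 47.7 CPM with JSK591 in CHLA-20, and 547 and 637 CPM in NGP. SOX10, which defines Schwann cells, averaged at most 0.148 CPM in any group. The part of these markers in the results below was not tested.

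With JSK591 the ATF4 set was mostly lower in both lines. In CHLA-20, 30 of the 39 tested members fell, 2 rose and 7 did not pass (adjusted p under 0.05), where 22.4% of all 19395 genes tested fell and 16.9% rose. In NGP, 28 fell, 1 rose and 10 did not pass, against 19.4% of all genes that fell and 16.8% that rose. Because the set was chosen with earlier results of these data known, this comparison describes it and is not an independent test. The median log2 change of the members was -0.29 in CHLA-20 and -0.25 in NGP, beside -0.02 and 0.00 over all genes tested. Most changes were under a fold of 2, which 4 members passed downwards in CHLA-20 and 1 in NGP. In CHLA-20 the 40 genes together gave 5054 and 5081 CPM with DMSO and 4330 and 4289 CPM with JSK591, a difference of -15%. NGP gave 5185 and 5203 CPM with DMSO and 4235 and 4370 CPM with JSK591, a difference of -17.2%. The 8 neuroblastoma markers moved as well, summing to 3749 and 3878 CPM with DMSO and 2998 and 2914 CPM with JSK591 in CHLA-20, where 6 fell and 1 rose. Their sums in NGP were 4279 and 4563 CPM with DMSO and 4077 and 4053 CPM with JSK591, where 4 fell and 2 rose. The largest single part of these sums was TH in CHLA-20 and MYCN, 1 of the 8, in NGP. TH held 1350 and 1410 CPM in CHLA-20 with DMSO and 1100 and 1050 CPM with JSK591. MYCN held 2260 and 2390 CPM in NGP with DMSO and 2020 and 2000 CPM with JSK591, but 2.57 and 2.1 CPM in CHLA-20 with DMSO. HAND2 fell by 0.55 ± 0.04 in CHLA-20 and rose by 0.34 ± 0.04 in NGP. The part of these lineage markers in the change of the members was not tested. In bulk RNA, less RNA per cell and fewer cells that express a gene cannot be told apart.

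There were 25 members lower in both lines, and VLDLR was the 1 member higher in both. The share of all genes tested with the same call in both lines was not counted, so these joint counts have no background. CHAC1, CBS, SLC7A1, STC2 and ADM2 fell in CHLA-20 and did not pass in NGP, while PSPH, GARS and CARS fell in NGP and did not pass in CHLA-20. WARS rose in CHLA-20 and did not pass in NGP. SESN2, ALDH18A1, SLC7A5 and MARS passed in neither line. All 32 members called in CHLA-20 and all 29 called in NGP had JSK591 libraries that did not overlap the DMSO libraries. Over all 40 members, NUPR1 included, 35 did not overlap in each line, where 66.6% of all genes tested did not overlap in CHLA-20 and 65.3% in NGP.

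**Figure D1:**
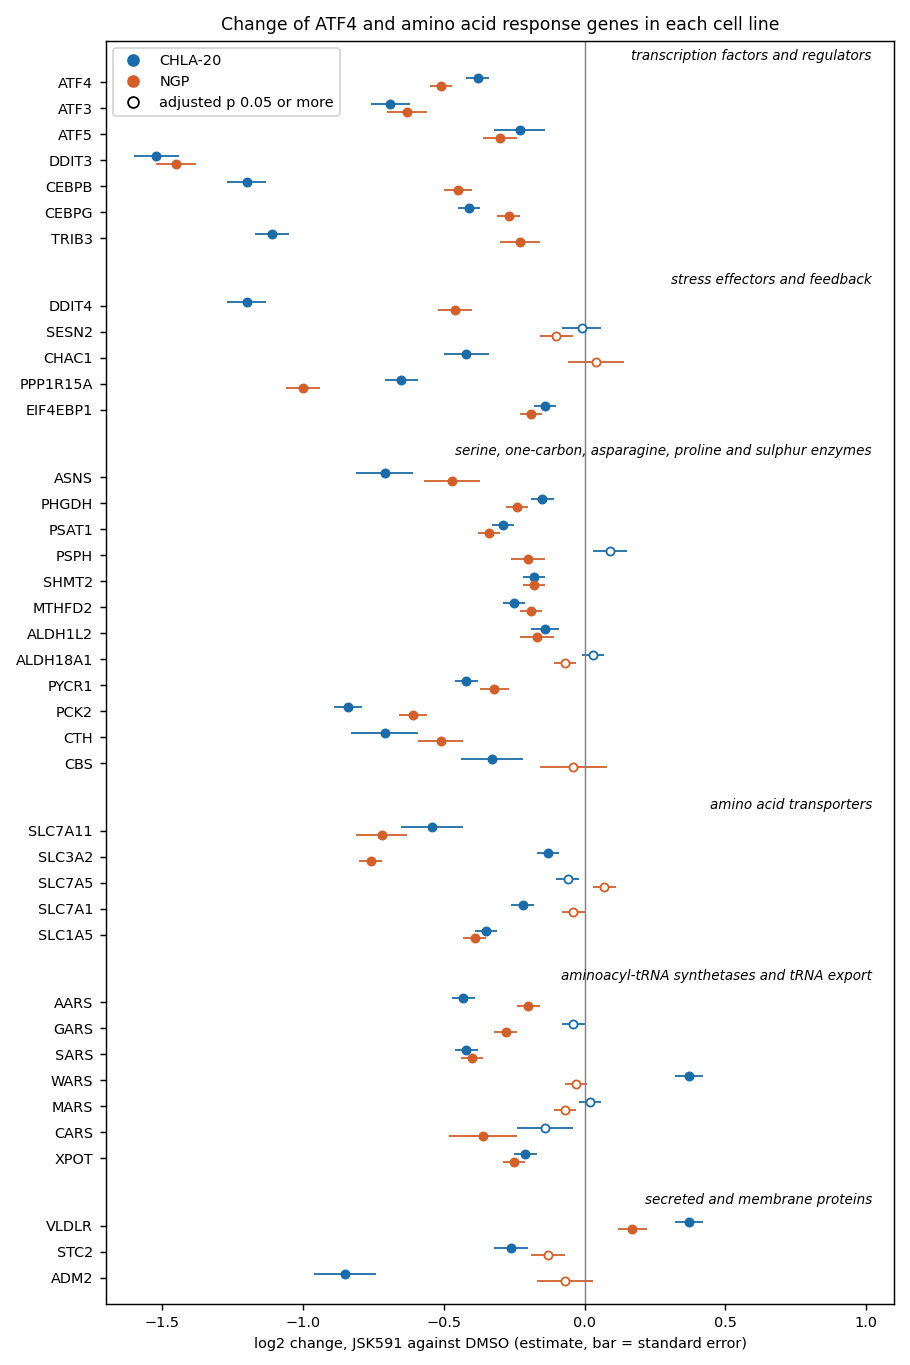
Log2 change with JSK591 against DMSO (x axis) of each of the 39 tested members, grouped by role (y axis), in CHLA-20 (blue) and NGP (orange); bars are standard errors and open points did not pass. Most points lie left of 0 in both lines, DDIT3 lies farthest left at -1.52 and -1.45, and VLDLR lies right of 0 in both.

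RefSeq promoter windows (GRCh38.p14, 250 bases before to 50 after each annotated start) were at hand for 33 of the 40 members. They were searched on both strands for TGATGNAA, the core letters of the C/EBP-ATF response element that ATF4 is known to bind. At least 1 match was found in 11 of the 33 members (33.3%), against 4.46% of 27305 genes with a window. By window the shares were 20.8% of 53 and 3.62% of 35116, since a gene may have several starts. The motif was in 6 of 20 members (30.0%) that fell in both lines and in 5 of 13 others (38.5%), namely CHAC1, SLC7A1, GARS, MARS and CARS. The members were listed as ATF4 pathway genes to begin with, a match is not a shown binding site, and these data hold no measure of binding. The 6 stretches below are those of members that fell in both lines, printed 5′ to 3′ on the gene's strand to show the element beside its promoter context, with capitals marking the match. The ATF3, CEBPG, ASNS and SLC1A5 matches read along the gene's strand, and those of SLC3A2 and AARS read on the opposite strand, so the reverse complement is in capitals. In SLC3A2 the match lies past an annotated start, and in the other 5 it lies before one. For SLC1A5 and SLC3A2 that start is well inside the gene (46774883 to 46788594 and 62856102 to 62888875). Their windows at starts farther upstream held no match. ATF3, CEBPG and ASNS also have a window at another start without a match.
ATF3, chr1:212565176-212565263, forward strand: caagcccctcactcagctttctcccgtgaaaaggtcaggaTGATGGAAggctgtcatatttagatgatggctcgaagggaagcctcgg
CEBPG, chr19:33374031-33374112, forward strand: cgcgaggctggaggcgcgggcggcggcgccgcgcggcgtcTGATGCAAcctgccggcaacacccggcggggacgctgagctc
ASNS, chr7:97872429-97872516, reverse strand: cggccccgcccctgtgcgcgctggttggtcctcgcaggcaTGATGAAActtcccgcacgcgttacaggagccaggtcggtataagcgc
SLC1A5, chr19:46784864-46784951, reverse strand: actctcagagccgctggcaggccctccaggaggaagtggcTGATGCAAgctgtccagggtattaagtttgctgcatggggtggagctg
SLC3A2, chr11:62881725-62881748, forward strand: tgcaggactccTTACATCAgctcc
AARS, chr16:70289646-70289733, reverse strand: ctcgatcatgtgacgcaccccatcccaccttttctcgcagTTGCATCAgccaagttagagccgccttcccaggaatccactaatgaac

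The regulators are the ATF4 gene itself, its partners and the factors it induces. All 7 that could be tested fell in both lines, with medians of -0.69 in CHLA-20 and -0.45 in NGP. Counts for the role groups from here on stand beside the shares of all genes tested. Those were 22.4% lower and 16.9% higher in CHLA-20, and 19.4% lower and 16.8% higher in NGP. Each role group holds few genes. ATF4 (ENSG00000128272.14, chromosome 22, 39519695 to 39522685, GRCh38) stood at 529 and 518 CPM in CHLA-20 with DMSO and at 398 and 407 CPM with JSK591, a log2 change of -0.38 ± 0.04 (adjusted p = 2.22e-13). In NGP it stood at 526 and 534 CPM with DMSO and at 360 and 382 CPM with JSK591, a log2 change of -0.51 ± 0.04 (adjusted p = 4.81e-18). All 4 treated libraries lay below all 4 DMSO libraries, and the 2 lines started from overlapping levels. Of the 50-base words in ATF4 transcripts, 17.9% also occur in other genes, mainly the ATF4P3, ATF4P4 and ATF4P1 pseudogenes, and reads from such words cannot be placed in 1 gene.

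DDIT3, also called CHOP, is a C/EBP-family factor induced by ATF4 and linked to cell death under lasting stress (chromosome 12, 57516588 to 57521737). Its levels were 21.2 and 19.3 CPM in CHLA-20 with DMSO and 6.78 and 7.37 CPM with JSK591, a log2 change of -1.52 ± 0.08 (adjusted p = 4.94e-23). The NGP libraries held 41.2 and 42.9 CPM with DMSO and 15 and 15.8 CPM with JSK591, a log2 change of -1.45 ± 0.07 (adjusted p = 7.09e-27). These were the largest falls among the members in either line, changes of -65.1% and -63.5%, and both treated NGP libraries lay below both CHLA-20 DMSO libraries. In DDIT3, 39.6% of exonic bases are shared with other genes, MARS among them, and whether reads were counted by strand is not given in the sources used here.

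CEBPB, a C/EBP factor that joins stress and inflammatory programmes, went from 26.9 and 29 to 12.6 and 11.8 CPM in CHLA-20, a log2 change of -1.20 ± 0.07 (adjusted p = 2.3e-22). In NGP it went from 66.1 and 67.3 to 49.3 and 48.3 CPM, a log2 change of -0.45 ± 0.05 (adjusted p = 7.31e-11). Every NGP library was above every CHLA-20 library for this gene. CEBPG, which pairs with ATF4 on amino acid response elements and holds a match shown above, went from 96.3 and 101 to 74.4 and 73.7 CPM in CHLA-20 and from 112 and 113 to 93.5 and 93.2 CPM in NGP. Its log2 changes were -0.41 ± 0.04 and -0.27 ± 0.04.

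TRIB3, a pseudokinase that feeds back on ATF4, was at 41.0 and 39.3 CPM in CHLA-20 with DMSO and at 19.3 and 17.9 CPM with JSK591, a log2 change of -1.11 ± 0.06 (adjusted p = 2.49e-22). NGP held 18.6 and 19.9 CPM with DMSO and 16.1 and 16.6 CPM with JSK591, a log2 change of -0.23 ± 0.07 (adjusted p = 0.00806). Treated CHLA-20 libraries overlapped those of NGP with DMSO. The NGP call for TRIB3 was lost without NGP DMSO replicate 2 (-0.20).

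ATF3, an immediate stress-response repressor, fell by 0.69 ± 0.07 in CHLA-20, from 32.5 and 31.6 to 20 and 19.8 CPM, and by 0.63 ± 0.07 in NGP, from 23.3 and 24.4 to 13.9 and 17.0 CPM. ATF5, a relative of ATF4 with a role in the mitochondrial stress response, went from 11.8 and 13.7 to 10.2 and 11.5 CPM in CHLA-20 and from 49.2 and 54.2 to 40.2 and 43.7 CPM in NGP. Its log2 changes were -0.23 ± 0.09 (adjusted p = 0.0288) and -0.30 ± 0.06. The CHLA-20 call for ATF5 was lost with DESeq2 (-0.22), with each line fitted alone (-0.21) and with no filter on low counts (-0.23). It was also lost without CHLA-20 DMSO replicate 2 (-0.09), without CHLA-20 JSK591 replicate 1 (-0.15), and without NGP DMSO replicate 1, NGP DMSO replicate 2 or NGP JSK591 replicate 1 (-0.20 each). NUPR1 summed to 19 counts over the 2 CHLA-20 DMSO libraries, 13 with JSK591, 5 in NGP with DMSO and 0 in NGP with JSK591, where 0 allows up to 3 counts or 0.0437 CPM. These counts carry no test.

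**Figure D2:**
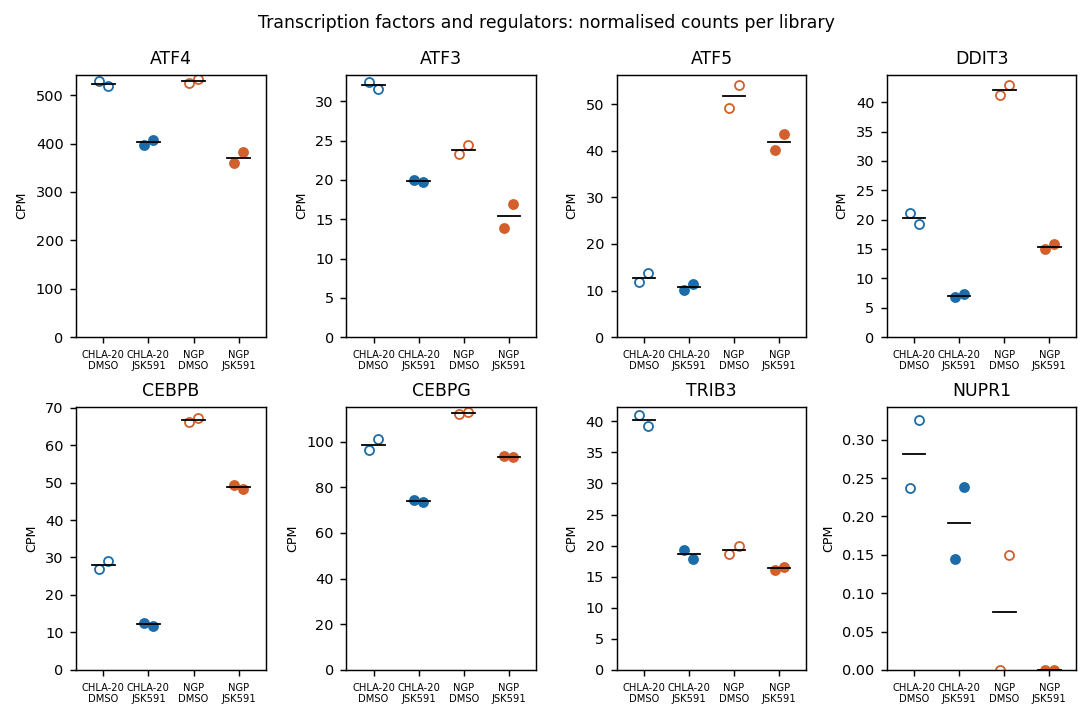
Normalised counts (CPM, y axis from 0) of the 8 regulators in each of the 8 libraries, with DMSO as open and JSK591 as filled points in CHLA-20 (blue) and NGP (orange); lines are means of 2 libraries. Treated libraries lie below the DMSO libraries of their line for each of these genes except NUPR1, which has too few counts to compare.

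Among the 5 stress effectors and feedback genes, 4 fell in CHLA-20 and 3 in NGP, with medians of -0.42 and -0.19. DDIT4, which restrains mTORC1, went from 25.2 and 27.6 to 11.4 and 11.5 CPM in CHLA-20, a log2 change of -1.20 ± 0.07 (adjusted p = 5.39e-21). In NGP the same gene went from 35.0 and 33.7 to 23.7 and 26.3 CPM, a log2 change of -0.46 ± 0.06 (adjusted p = 2.33e-08). Neither line's treated libraries overlapped its DMSO libraries. DDIT4 shares 41.2% of its exonic bases with the antisense gene DDIT4-AS1.

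PPP1R15A, or GADD34, brings a phosphatase to eIF2 and ends the response. Levels of 43.9 and 43.7 CPM in CHLA-20 with DMSO became 27.7 and 28.2 CPM with JSK591, a log2 change of -0.65 ± 0.06 (adjusted p = 6.02e-15). NGP had 45.3 and 45.7 CPM with DMSO and 22.5 and 23.2 CPM with JSK591, and PPP1R15A there fell by 1.00 ± 0.06 (adjusted p = 4.7e-22). The 2 lines did not differ with DMSO in this gene beyond the test's threshold (0.06 ± 0.05, adjusted p = 0.339).

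CHAC1 degrades glutathione and is a sensitive ATF4 target. It went from 20.3 and 22.0 to 16.2 and 15.3 CPM in CHLA-20, a log2 change of -0.42 ± 0.08 (adjusted p = 5.79e-06), while NGP held 8.64 and 7.85 CPM with DMSO and 8.34 and 8.64 CPM with JSK591 (0.04 ± 0.10, adjusted p = 0.784). EIF4EBP1, a repressor of cap-dependent translation, fell by 0.14 ± 0.04 in CHLA-20 and 0.19 ± 0.04 in NGP. Its CHLA-20 call was lost with no filter on low counts (-0.14) and without CHLA-20 DMSO replicate 2 (-0.08) or CHLA-20 JSK591 replicate 2 (-0.13). SESN2, a leucine sensor and stress protein, gave -0.01 ± 0.07 and -0.10 ± 0.06 and passed in neither line.

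Of the 12 enzymes of serine, one-carbon, asparagine, proline and sulphur metabolism, 10 fell in each line, with medians of -0.27 in CHLA-20 and -0.22 in NGP. PCK2, the mitochondrial phosphoenolpyruvate carboxykinase, had the largest fall, from 84.2 and 83.4 to 46.2 and 47.3 CPM in CHLA-20 (-0.84 ± 0.05, adjusted p = 1.64e-22). In NGP PCK2 went from 65.2 and 62.8 to 40.5 and 43.2 CPM, a log2 change of -0.61 ± 0.05 (adjusted p = 1.01e-15). ASNS, asparagine synthetase and the classic gene of the amino acid response, went from 12.6 and 12.2 to 8.14 and 6.99 CPM in CHLA-20 and from 12.3 and 12.1 to 8.11 and 9.56 CPM in NGP. These were log2 changes of -0.71 ± 0.10 (adjusted p = 1.57e-08) and -0.47 ± 0.10 (adjusted p = 7.1e-05) from overlapping DMSO levels. ASNS shares 44.6% of its exonic bases with AC079781.5.

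The 3 enzymes of serine synthesis had smaller estimates. PHGDH, which takes glucose carbon into serine, fell by 0.15 ± 0.04 and 0.24 ± 0.04 in CHLA-20 and NGP, and PSAT1, the next enzyme, by 0.29 ± 0.04 and 0.34 ± 0.04. PSPH, the last step, stood at 31.7 and 29.9 CPM with DMSO and 33.5 and 32.0 CPM with JSK591 in CHLA-20 (0.09 ± 0.06, adjusted p = 0.255). In NGP PSPH went from 29.1 and 29.1 to 23.9 and 26.8 CPM, a log2 change of -0.20 ± 0.06 (adjusted p = 0.00968). That call was lost with DESeq2 (-0.22), with no filter on low counts (-0.20) and without NGP JSK591 replicate 1 (-0.14).

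Mitochondrial one-carbon enzymes also fell in both lines. SHMT2, which splits serine into glycine and a one-carbon unit, fell by 0.18 ± 0.04 in each line, and MTHFD2, which oxidises that unit, by 0.25 ± 0.04 and 0.19 ± 0.04. ALDH1L2, which makes mitochondrial NADPH from formyl-folate, fell by 0.14 ± 0.05 (adjusted p = 0.0229) and 0.17 ± 0.06 (adjusted p = 0.0247). The CHLA-20 call for ALDH1L2 was lost with DESeq2 (-0.13) and no filter (-0.13), and when any library other than NGP JSK591 replicate 2 was left out. The values were -0.10 without CHLA-20 DMSO replicate 1, -0.15 without CHLA-20 DMSO replicate 2, -0.14 without CHLA-20 JSK591 replicate 1 and -0.13 without CHLA-20 JSK591 replicate 2. They were -0.11 without NGP DMSO replicate 1, NGP DMSO replicate 2 or NGP JSK591 replicate 1. Its NGP call was lost with DESeq2 (-0.19), no filter (-0.17), total count scaling (-0.15) and without NGP DMSO replicate 1 (-0.16) or NGP JSK591 replicate 1 (-0.13).

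In proline synthesis, PYCR1, the last enzyme, fell by 0.42 ± 0.04 in CHLA-20 and 0.32 ± 0.05 in NGP, while ALDH18A1, the first, gave 0.03 ± 0.04 and -0.07 ± 0.04 and passed in neither. In the route from homocysteine to cysteine, CTH fell from 7.60 and 6.43 to 4.21 and 4.37 CPM in CHLA-20 (-0.71 ± 0.12) and from 17.5 and 18.9 to 12.4 and 13.2 CPM in NGP (-0.51 ± 0.08). CBS, the step before it, fell by 0.33 ± 0.11 in CHLA-20 (adjusted p = 0.0146) and gave -0.04 ± 0.12 in NGP. The CHLA-20 call for CBS was lost with DESeq2 (-0.32), no filter (-0.33) and without CHLA-20 DMSO replicate 2 (-0.26) or CHLA-20 JSK591 replicate 1 (-0.16). Since 54.5% of its 50-base words also occur in other genes, chiefly its near copy CBSL, the CBS counts are uncertain.

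Of the 5 amino acid transporters, 4 fell in CHLA-20 and 3 in NGP, with medians of -0.22 and -0.39. SLC7A11, the cystine carrier of system xc-, went from 7.58 and 9.04 to 5.80 and 5.62 CPM in CHLA-20 and from 19.7 and 17.1 to 10.9 and 11.5 CPM in NGP, log2 changes of -0.54 ± 0.11 and -0.72 ± 0.09. SLC3A2, the shared heavy chain of SLC7A11 and SLC7A5, stood at 178 and 184 CPM in NGP with DMSO and at 104 and 109 CPM with JSK591, a log2 change of -0.76 ± 0.04 (adjusted p = 5.74e-23). In CHLA-20 SLC3A2 went from 100 and 104 to 97.8 and 89.5 CPM, a log2 change of -0.13 ± 0.04 (adjusted p = 0.0153). Treated NGP libraries stood close to those of CHLA-20 with DMSO. The CHLA-20 call for SLC3A2 was lost with DESeq2 (-0.12) and no filter (-0.12), without CHLA-20 DMSO replicate 2 (-0.08) or CHLA-20 JSK591 replicate 2 (-0.06), and without NGP DMSO replicate 1, NGP DMSO replicate 2 or NGP JSK591 replicate 1 (-0.10 each).

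SLC1A5, the neutral amino acid and glutamine exchanger, fell by 0.35 ± 0.04 in CHLA-20 and 0.39 ± 0.04 in NGP. The cationic amino acid carrier SLC7A1 fell by 0.22 ± 0.04 in CHLA-20 and gave -0.04 ± 0.04 in NGP. SLC7A5, the large neutral amino acid carrier that brings in leucine, gave -0.06 ± 0.04 and 0.07 ± 0.04 and passed in neither line, so the light chains SLC7A11 and SLC7A5 had different calls beside their common partner SLC3A2.

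The 6 synthetases of the set charge tRNAs with alanine, glycine, serine, tryptophan, methionine and cysteine, and XPOT exports tRNA from the nucleus. Of these 7 genes 3 fell and 1 rose in CHLA-20, and 5 fell in NGP, with medians of -0.14 and -0.25. SARS went from 364 and 368 to 275 and 274 CPM in CHLA-20 and from 313 and 313 to 231 and 243 CPM in NGP, log2 changes of -0.42 ± 0.04 and -0.40 ± 0.04. AARS, whose match is shown above, went from 297 and 298 to 224 and 219 CPM in CHLA-20 (-0.43 ± 0.04) and from 271 and 271 to 234 and 238 CPM in NGP (-0.20 ± 0.04). XPOT fell by 0.21 ± 0.04 and 0.25 ± 0.04.

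GARS stood at 354 and 354 CPM with DMSO and 336 and 353 CPM with JSK591 in CHLA-20 (-0.04 ± 0.04, adjusted p = 0.427), and went from 407 and 409 to 327 and 343 CPM in NGP, a log2 change of -0.28 ± 0.04 (adjusted p = 3.76e-09). WARS, a synthetase also induced by interferon, went the other way in CHLA-20, from 61.9 and 59.9 to 79.8 and 77.2 CPM, a rise of 0.37 ± 0.05 (adjusted p = 1.2e-09). NGP held 93.2 and 94.6 CPM of WARS with DMSO and 89.4 and 94.8 CPM with JSK591, and these libraries overlapped. MARS gave 0.02 ± 0.04 and -0.07 ± 0.04 and passed in neither line. CARS fell by 0.36 ± 0.12 in NGP (adjusted p = 0.0113), a call lost with DESeq2 (-0.37) and without NGP DMSO replicate 2 (-0.31) or NGP JSK591 replicate 1 (-0.34), and gave -0.14 ± 0.10 in CHLA-20.

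Of the 3 genes of secreted and membrane proteins, VLDLR, a lipoprotein and reelin receptor, rose in both lines. It went from 48.1 and 47.2 to 61.0 and 62.5 CPM in CHLA-20, a rise of 0.37 ± 0.05 (adjusted p = 5.61e-09), and from 38.3 and 36.5 to 42.4 and 41.6 CPM in NGP, a rise of 0.17 ± 0.05 (adjusted p = 0.00973). The NGP call for VLDLR was lost with DESeq2 (0.15) and without NGP DMSO replicate 2 (0.12) or NGP JSK591 replicate 1 (0.13). ADM2, a peptide hormone of the calcitonin family, went from 10.3 and 12.8 to 6.29 and 6.48 CPM in CHLA-20, a log2 change of -0.85 ± 0.11 (adjusted p = 1.98e-09). In NGP, ADM2 libraries overlapped, at 10.9 and 11.6 CPM with DMSO and 11.9 and 9.47 CPM with JSK591. STC2, a secreted glycoprotein, fell by 0.26 ± 0.06 in CHLA-20 and gave -0.13 ± 0.06 in NGP (adjusted p = 0.058), which passed without CHLA-20 DMSO replicate 2 (-0.15) or NGP DMSO replicate 1 (-0.21).

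The question of where the lines responded differently was put to the difference of the 2 treatment effects, NGP minus CHLA-20. It shares all 8 libraries with the treatment comparisons. This difference passed as higher for 8 members and as lower for 7, where 15.2% and 12.5% of all genes tested passed, and 24 did not pass. The median over members was 0.00, beside 0.03 over all genes. The 8 higher ones, with a larger fall in CHLA-20, were TRIB3 (0.88 ± 0.10), ADM2 (0.78 ± 0.15), CEBPB (0.75 ± 0.09), DDIT4 (0.74 ± 0.10), CHAC1 (0.47 ± 0.13), PCK2 and AARS (0.23 each) and SLC7A1 (0.18 ± 0.05). Among the 7 lower ones, SLC3A2 (-0.63 ± 0.06), PPP1R15A (-0.35 ± 0.08), GARS (-0.24 ± 0.05), PSPH (-0.29 ± 0.09) and ATF4 itself (-0.13 ± 0.05, adjusted p = 0.0442) had the lower change in NGP, and WARS (-0.39 ± 0.06) and VLDLR (-0.21 ± 0.07) had the higher change in CHLA-20. The estimated fall of ATF4 mRNA was thus larger in NGP, while those of CEBPB, TRIB3 and DDIT4 were larger in CHLA-20.

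Of these differences, 9 kept their call in all 8 fits that left out 1 library: TRIB3, ADM2, CEBPB, DDIT4, AARS, SLC3A2, PPP1R15A, GARS and WARS. The ATF4 difference was lost with no filter (-0.14), total count scaling (-0.12) and without CHLA-20 JSK591 replicate 1 (-0.15), CHLA-20 JSK591 replicate 2 (-0.12) or NGP JSK591 replicate 1 (-0.14). For CHAC1 it was lost with DESeq2 (0.44) and without NGP DMSO replicate 2 (0.36), and for PSPH with DESeq2 (-0.31), no filter (-0.29) and without CHLA-20 JSK591 replicate 1 (-0.26). PCK2 lost it with DESeq2 (0.20) and without CHLA-20 DMSO replicate 2 (0.19), CHLA-20 JSK591 replicate 1 (0.21), NGP DMSO replicate 2 (0.16) or NGP JSK591 replicate 2 (0.18). SLC7A1 lost it without CHLA-20 DMSO replicate 2 (0.13), CHLA-20 JSK591 replicate 2 (0.14), NGP DMSO replicate 1 (0.12), NGP DMSO replicate 2 (0.13) or NGP JSK591 replicate 1 (0.10). VLDLR lost it with DESeq2 (-0.23), no filter (-0.21) and without CHLA-20 JSK591 replicate 2 or NGP JSK591 replicate 2 (-0.19 each). SLC7A5 (0.14, adjusted p = 0.0545) passed when every library had to hold at least 10 counts, with total count scaling (0.15) and without CHLA-20 DMSO replicate 1 (0.18) or CHLA-20 JSK591 replicate 1 (0.17), CEBPG passed under the same stricter filter (0.15), and ALDH18A1 without NGP DMSO replicate 2 (-0.17).

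**Figure D3:**
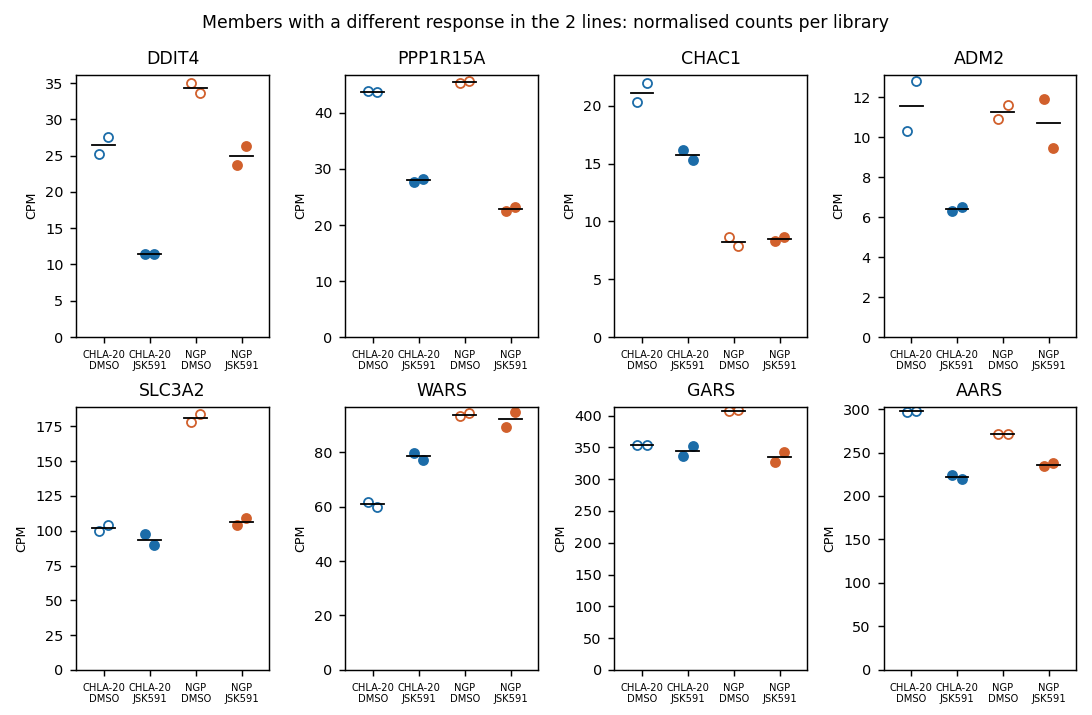
Normalised counts (CPM, y axis from 0) per library of 8 members whose treatment effects differed between the lines, with DMSO as open and JSK591 as filled points in CHLA-20 (blue) and NGP (orange); lines are means of 2 libraries. DDIT4 and ADM2 drop further in CHLA-20, PPP1R15A and SLC3A2 drop further in NGP, and WARS rises in CHLA-20.

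The lines also differed in these genes with DMSO alone. There, 18 members were higher and 15 lower in NGP than in CHLA-20, against 36.6% and 38.9% of all genes tested, and the median difference was 0.04 beside -0.02 over all genes. The libraries of the lines did not overlap for 37 of the 40 members, including all 33 that passed, where 86.6% of all genes tested did not overlap. The largest differences were ATF5 (2.02 ± 0.07), CTH (1.38 ± 0.09), CEBPB (1.25 ± 0.05), SLC7A11 (1.15 ± 0.09) and DDIT3 (1.05 ± 0.06), all higher in NGP, and CHAC1 (-1.36 ± 0.09), ALDH1L2 (-1.24 ± 0.06) and TRIB3 (-1.06 ± 0.06), all lower there. ATF4 did not pass (0.02 ± 0.04, adjusted p = 0.667), nor did PPP1R15A, ASNS, PSPH, SHMT2 and ADM2. SHMT2 (0.04) passed with total count scaling (0.08) and without NGP DMSO replicate 1 (0.10) or NGP JSK591 replicate 1 (0.09), and the AARS difference (-0.13 ± 0.04) was lost without NGP DMSO replicate 1 (-0.09).

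Per kilobase of exonic sequence, EIF4EBP1 and ATF4 were the 2 most abundant members in every group. ATF4 had 208 and EIF4EBP1 179 CPM per kilobase in CHLA-20 with DMSO, and 211 and 231 in NGP with DMSO. SARS (95.5), GARS (85.3) and SHMT2 (80.2) followed in CHLA-20 with DMSO, and GARS (98.3), SHMT2 (82.7) and SARS (81.6) in NGP with DMSO. At the other end, SLC7A11 (0.861), CARS (1.06) and CBS (1.23) were the lowest in CHLA-20 with DMSO apart from NUPR1 (0.0496). The rank of CBS is uncertain, since 54.5% of its 50-base words also occur in other genes. ATF4 went to 160 CPM per kilobase in CHLA-20 with JSK591 and to 148 in NGP with JSK591, below EIF4EBP1 at 162 and 203.

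Genes around the pathway, from lists written for this comparison, were mixed. Their counts stand beside the shares of all genes tested, 16.9% higher and 22.4% lower in CHLA-20 and 16.8% higher and 19.4% lower in NGP. Of 17 genes of eIF2, its exchange factor eIF2B, its kinases and their regulators, 4 rose and 5 fell in CHLA-20, near those shares. In NGP 0 rose, below the share of all genes that rose, and 5 fell. The medians were -0.03 in CHLA-20 and -0.04 in NGP. EIF2AK3, the kinase PERK, went from 19.5 and 19.2 to 27.2 and 24.0 CPM in CHLA-20, a rise of 0.41 ± 0.07, and gave -0.02 ± 0.07 in NGP. EIF2S1, the subunit that the kinases phosphorylate, rose by 0.21 ± 0.04 in CHLA-20 and gave -0.04 ± 0.04 in NGP. DELE1, which relays mitochondrial stress, fell by 0.30 ± 0.04 in CHLA-20 and by 0.27 ± 0.05 in NGP. In NGP the exchange factor subunit EIF2B2 went from 49.5 and 55.9 to 34.2 and 34.2 CPM, a log2 change of -0.62 ± 0.06, beside -0.21 ± 0.06 in CHLA-20. EIF2B2 shares 23.6% of its exonic bases with other genes. PPP1R15B, the constitutive partner of the eIF2 phosphatase, fell by 0.40 ± 0.04 in NGP and by 0.11 ± 0.04 in CHLA-20. EIF2AK1, the haem-regulated kinase, fell by 0.31 ± 0.04 in NGP and by 0.15 ± 0.04 in CHLA-20. The difference between lines passed as lower in NGP for 8 of these 17, where 12.5% of all genes tested did.

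Of 13 tested cytosolic synthetases outside the set, 3 rose and 5 fell in CHLA-20, and 11 fell in NGP, with medians of -0.05 and -0.11. VARS, the other listed one, had 0 counts in every library. The reason was not looked into, so these counts do not show that the gene is silent. QARS, for glutamine, went from 208 and 208 to 150 and 149 CPM in CHLA-20, a log2 change of -0.48 ± 0.04, and fell by 0.37 ± 0.04 in NGP. HARS, for histidine, rose by 0.34 ± 0.05 in CHLA-20. RARS, for arginine, rose by 0.19 ± 0.04 in CHLA-20 but fell by 0.13 ± 0.04 in NGP (adjusted p = 0.01). TARS, for threonine, went from 264 and 259 to 195 and 201 CPM in NGP, a log2 change of -0.40 ± 0.04. YARS, for tyrosine, fell by 0.33 ± 0.04 in NGP and by 0.13 ± 0.04 in CHLA-20. Of 16 tested mitochondrial synthetases, which are separate genes, 1 rose and 5 fell in CHLA-20, and 1 rose and 4 fell in NGP, with medians of -0.07 and -0.03. The share of mitochondrial synthetases that fell was near that of all genes. AARS2 and TARS2 fell by 0.30 ± 0.06 and 0.30 ± 0.05 in CHLA-20 and FARS2 by 0.24 ± 0.09. In NGP FARS2 fell by 0.52 ± 0.08, YARS2 by 0.30 ± 0.06 and TARS2 by 0.22 ± 0.04, and PARS2 rose by 0.27 ± 0.10.

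**Figure D4:**
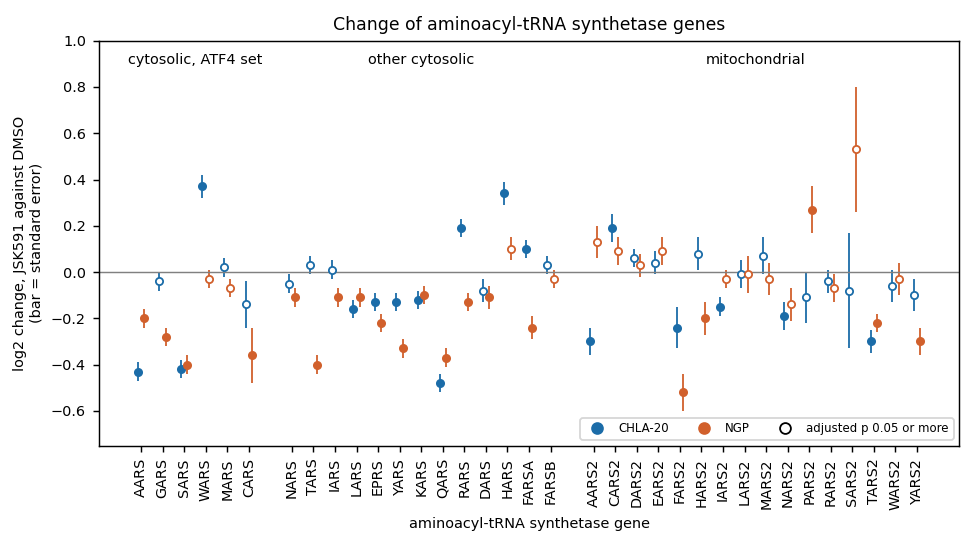
Log2 change with JSK591 against DMSO (y axis) of aminoacyl-tRNA synthetase genes (x axis): the 6 members, 13 other cytosolic and 16 mitochondrial ones, in CHLA-20 (blue) and NGP (orange); bars are standard errors and open points did not pass. WARS and HARS are the highest filled points in CHLA-20, at 0.37 and 0.34, and 11 of the 13 other cytosolic genes are filled and below 0 in NGP.

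Of 19 tested genes from a further list of ATF4-responsive genes, 3 rose and 9 fell in CHLA-20, and 1 rose and 6 fell in NGP, with medians of -0.15 and -0.08. GOT1, the cytosolic aspartate aminotransferase, went from 85.4 and 83.1 to 49.4 and 50.3 CPM in CHLA-20, a log2 change of -0.76 ± 0.05, and fell by 0.32 ± 0.04 in NGP. GDF15, a secreted stress cytokine, went from 27.9 and 27.6 to 20.1 and 21.1 CPM in NGP, a log2 change of -0.43 ± 0.06, beside -0.55 ± 0.05 in CHLA-20. VEGFA, an angiogenic factor, fell by 0.49 ± 0.04 in NGP and by 0.28 ± 0.05 in CHLA-20. FAM129A, also called NIBAN1, went from 72 and 84 to 13 and 25 counts in CHLA-20, a log2 change of -2.04 ± 0.30, and NGP held 0 or 1 count per library. FGF21, a metabolic hormone, went from 9 and 25 to 4 and 2 counts in CHLA-20, a fitted log2 change of -2.47 ± 0.63 on few counts. In the other direction, TNFRSF10B, the death receptor DR5, went from 78.9 and 84.2 to 117 and 117 CPM in CHLA-20 and from 80.1 and 76.0 to 111 and 110 CPM in NGP, rises of 0.52 ± 0.04 and 0.50 ± 0.04. TNFRSF10B is a p53 target as well as an ATF4 and DDIT3 target.

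Of 11 tested serine and one-carbon enzymes outside the set, 4 rose and 1 fell in CHLA-20, and 4 rose and 2 fell in NGP, with medians of 0.05 and 0.13. GCSH, of the glycine cleavage system, rose by 0.53 ± 0.18 and 0.48 ± 0.17, and MTHFD2L, a relative of MTHFD2, by 0.48 ± 0.09 and 0.30 ± 0.08. The GCSH rises rest on few counts. CHLA-20 held 72 and 72 with DMSO and 110 and 100 with JSK591 (adjusted p = 0.0131). NGP held 80 and 79 with DMSO and 124 and 104 with JSK591 (adjusted p = 0.021). MTHFD1L, the mitochondrial formyl-folate synthetase, fell by 0.38 ± 0.05 and 0.37 ± 0.05, the direction of SHMT2 and MTHFD2, while MTHFD2L went the other way. Of 4 tested proline and ornithine enzymes outside the set, ARG2 and ALDH4A1 fell by 0.48 ± 0.11 and 0.42 ± 0.13 in CHLA-20. ARG2 shares 37.4% of its exonic bases with VTI1B, and ALDH4A1 shares 41.1% with AL080251.1, so their counts are uncertain.

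Counting could mix genes that overlap. There were 8 members that share at least 20% of their exonic bases or 50-base words with another gene: ATF5, DDIT3, DDIT4, ASNS, MTHFD2, PYCR1, CBS and SLC1A5. Among these, 8 fell in CHLA-20 and 7 in NGP, where 22.4% and 19.4% of all genes tested fell. Of the other 31 tested members, 22 fell and 2 rose in CHLA-20, and 21 fell and 1 rose in NGP.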

How the data were processed

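The series measured messenger RNA in 8 libraries, 2 for each of 4 groups, which were taken from the sample titles. The authors deposited unnormalised gene counts, 1 table per library. The submitters' processing notes name STAR, HTSeq and DESeq2 and the genome GRCh38 (hg38), and versions, annotation and strand setting are not given in the sources used here. Rows that name no gene were left out of library sizes: reads outside genes were 5.15% to 6.86% of counted reads, ambiguous ones 6.77% to 7.18% and multiply aligned ones 19.2% to 22.0%.

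Counts were analysed in edgeR 4.0.16 (R 4.3.3) by 1 quasi-likelihood model with the 4 groups over all 8 libraries, after filterByExpr (19395 genes) and TMM scaling. The residual degrees of freedom were 4, with a biological coefficient of variation of 2.76%. P-values were Benjamini-Hochberg adjusted over all genes tested, with 0.05 as threshold. Standard errors were derived from the F statistic. Alternatives were DESeq2 1.42.0, total count scaling, other filters, a replicate block, each line alone, and leaving out each library. Replicates were not treated as paired, since deviations of same-numbered libraries had correlations of -0.027 to 0.012. The chi-square of a replicate pair, divided by its degrees of freedom, was 2.16 to 3.37, so replicates differed by more than sampling noise. Count-based limits cover counting error only.

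The members and lists were chosen with earlier results of these data known. Named genes were all members and, per treatment comparison and pathway list, up to 3 called genes with the largest absolute change, 1 of which is not reported here. Promoter stretches were those of members with the motif that were called in 1 direction in both lines. Promoter sequences are from RefSeq (GRCh38.p14), matched by gene symbol, and none was at hand for NUPR1, EIF4EBP1, PSPH, SHMT2, ALDH1L2, PYCR1 and SLC7A11. Scripts ran in Python 3.11.15.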

Additional observations from a re-analysis of the deposited data

Results flagged for a closer look

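For 15 members the treatment effect differed between NGP and CHLA-20 by the test of the difference itself (NGP minus CHLA-20, log2 scale). That is 8 higher and 7 lower of 39, where 15.2% and 12.5% of all genes tested passed. In 8 the fall was larger in CHLA-20: TRIB3 (0.88, adjusted p = 8.67e-11), ADM2 (0.78, adjusted p = 3.16e-05), CEBPB (0.75, adjusted p = 3.39e-10), DDIT4 (0.74, adjusted p = 1.48e-08), CHAC1 (0.47, adjusted p = 0.00293), PCK2 (0.23, adjusted p = 0.00938), AARS (0.23, adjusted p = 0.000454) and SLC7A1 (0.18, adjusted p = 0.0107). In 7 the change was lower in NGP: SLC3A2 (-0.63, adjusted p = 1.02e-12), WARS (-0.39, adjusted p = 1.36e-06), PPP1R15A (-0.35, adjusted p = 0.000548), PSPH (-0.29, adjusted p = 0.00914), GARS (-0.24, adjusted p = 0.000181), VLDLR (-0.21, adjusted p = 0.0274) and ATF4 (-0.13, adjusted p = 0.0442). The calls of ATF4, CHAC1, PSPH, PCK2, SLC7A1 and VLDLR were lost when 1 library was left out, as given above with each library and value. Groups of 2 libraries are too small to look for a library far from the others.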

How the results depend on the processing

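No member's call changed direction under any alternative. Over the alternatives, the members that fell numbered 25 to 30 in CHLA-20 (30 as reported) and 25 to 29 in NGP (28 as reported). With 1 library left out, the CHLA-20 median was -0.35 to -0.24 and the NGP median -0.31 to -0.25, the median difference of the responses -0.05 to 0.01, and the median difference of the lines with DMSO 0.02 to 0.09 (0.08 with total count scaling). The 1 member that rose in NGP became 0 with DESeq2 and 0 to 1 with 1 library left out, 0 being without NGP DMSO replicate 2 or NGP JSK591 replicate 1. Members with a higher difference of responses numbered 5 to 9 (8 as reported) with 1 library left out, the 5 being without NGP DMSO replicate 2, and those with a lower one 5 to 8 (7 as reported), and 4 with no filter on low counts. The cause was not tested. With the replicate block, 30 and 28 members fell in CHLA-20 and NGP, and 0 of 156 member calls changed. Over all genes, DESeq2 called 1817 genes higher in NGP in place of 3266, and 1641 with a higher difference of responses in place of 2950. Depth limits NUPR1, which had too few counts to pass the filter.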
